A study of Mus musculus with 6 samples.

Results

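The genes described here are 9 that make, carry or break down retinoic acid: the retinol carrier Rbp4, the retinol and retinal oxidoreductases Rdh10 and Dhrs3, the retinaldehyde dehydrogenases Aldh1a1, Aldh1a2 and Aldh1a3, the intracellular binding proteins Crabp1 and Crabp2, and the degrading enzyme Cyp26b1. They were taken by symbol from the authors' deposited table of 22320 genes, and all 9 had a row and passed the filter on low values. In Arid4bSCKO testes 2 of them, Rdh10 and Dhrs3, rose, and 3, Aldh1a1, Aldh1a3 and Cyp26b1, fell. Rbp4, Aldh1a2, Crabp1 and Crabp2 did not pass the test.

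The study compared mRNA of whole testes from Arid4bSCKO and control mice at postnatal day 1.5. Arid4bSCKO mice had the genotype Arid4b-/Flox; Amh-cre, and control mice had Arid4b+/Flox; Amh-cre, both on a hybrid background of C57BL6/J and 129/SvEv. The groups thus shared the floxed allele and the Cre, which the Amh promoter drives in Sertoli cells, which nurse the germ cells. They differed in the other Arid4b allele, which is null or wild type in every cell of the mouse. In each group 3 pools, made of 4 testes each, were sequenced. Only group means and the statistics of their comparison could be used, and values of single pools were not analysed here. In bulk tissue, fewer cells of a type and less RNA per cell cannot be told apart.

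Retinoic acid is made from vitamin A in a pair of oxidation steps. Retinol is first turned into retinal, a step that RDH10 carries out and DHRS3 runs in reverse, and retinaldehyde dehydrogenases then oxidise retinal to retinoic acid. The acid enters the nucleus and acts through the receptors RAR and RXR, and CYP26 enzymes oxidise it for removal. In the fetal mouse testis CYP26B1 is known for keeping retinoic acid away from germ cells, so that they do not enter meiosis there, and after birth retinoic acid starts the differentiation of spermatogonia.

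Levels are the authors' mean of log2(normalized count + 1) per group, and a difference is the Arid4bSCKO level minus the control level. Its 95% interval was derived from the p-value that the authors gave. A gene is called when a moderated limma test fitted over 19095 genes gave a Benjamini-Hochberg adjusted p below 0.05, and only called genes are said to rise or fall. That test called 7.37% of all genes as higher and 6.46% as lower, against 2 and 3 of the 9 members. The FDR in the authors' deposited table passed 0.05 for 0.26% of genes and for 0 of the 9 members. An unadjusted deposited p below 0.05 was found for 20.9% of all genes and for 5 of the 9 members, the same 5 that were called.

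The libraries held on average about 17500000 counted reads each in Arid4bSCKO and 18600000 in control, estimated from the smallest values of the table. Arid4b, the targeted gene, was at 35.1% of control. Markers of the testis were present in both groups. In the authors' deposited table Amh of Sertoli cells had a mean log2 level of 12.63 in Arid4bSCKO and 14.25 in control. That difference was not called (moderated test, adjusted p = 0.111). Sox9, also of Sertoli cells, stood at 10.81 in Arid4bSCKO and 10.67 in control. Ddx4 of germ cells had 10.62 and 10.91, and Cyp17a1 of Leydig cells 12.60 and 12.62, each pair in the same order of groups.

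**Figure D1:**
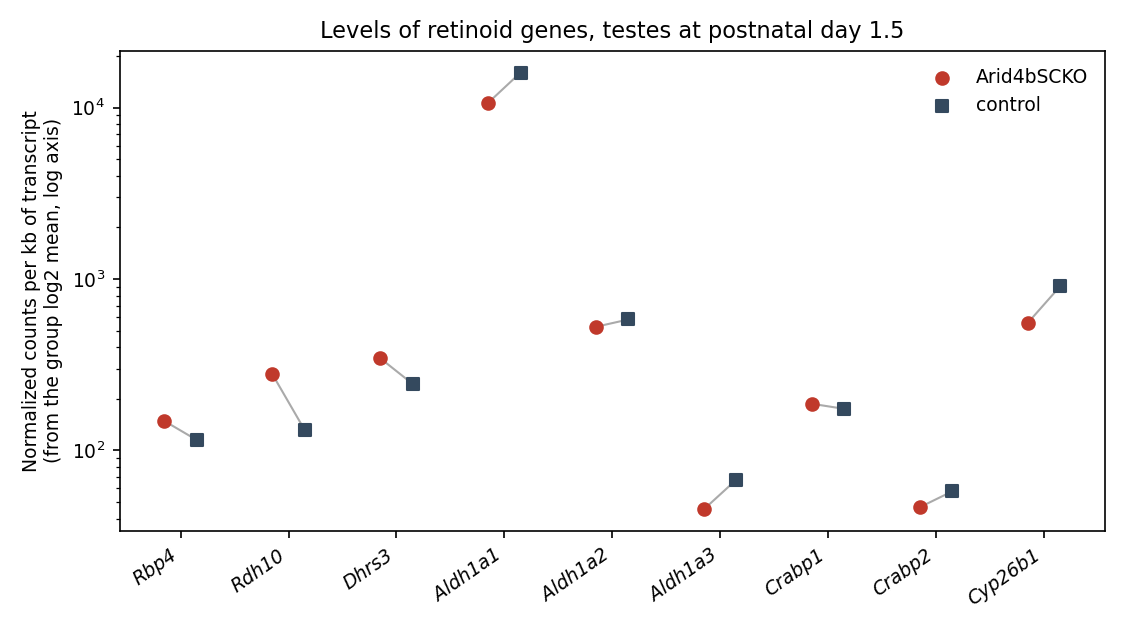
Levels of the 9 genes, as normalized counts per kb of transcript taken back from the authors' group log2 means (log axis), in Arid4bSCKO testes (red circles) and control testes (dark squares). Grey lines join the groups, and no error is drawn because the table holds means only. Aldh1a1 stands at 10655 in Arid4bSCKO and 15996 in control, far above the other 8 genes.

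Per kb of transcript, the order of the genes was led by Aldh1a1. Aldh1a1 was at 10655 normalized counts per kb in Arid4bSCKO and 15996 in control. Cyp26b1 followed at 553 and 905, and Aldh1a2 at 526 and 581. Dhrs3 stood at 345 in Arid4bSCKO and 244 in control, and Rdh10 at 278 and 131. Crabp1 had 187 and 175 counts per kb, and Rbp4 148 and 115. The lowest were Crabp2 at 46.6 in Arid4bSCKO and 57.7 in control, and Aldh1a3 at 45.4 and 67.5. In control, Rdh10 lay below Crabp1, whereas in Arid4bSCKO it lay above it. Differences between neighbours in this order were not tested, since the table holds no spread for a comparison of genes.

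The carrier gene came first in the path. Rbp4 encodes the plasma carrier of retinol (chromosome 19, 38116620 to 38125321, minus strand, mm10). Its mean log2 level in the authors' deposited table was 7.29 in Arid4bSCKO and 6.93 in control. The difference was 0.37 (95% interval -0.04 to 0.77), or 129% of control, and it was not called (adjusted p = 0.191). The interval reaches from about no difference to 171% of control.

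Rdh10, which oxidises retinol to retinal and is required for retinoic acid formation in the mouse embryo, rose most of the 9. The gene lies on chromosome 1 (16105882 to 16132550, plus strand). The authors' deposited table puts its mean log2 level at 9.97 in Arid4bSCKO testes, against 8.88 in control testes. The difference of 1.08 (95% interval 0.59 to 1.58) corresponds to 2.12-fold, with an interval from 1.50-fold to 2.98-fold, and it was called (adjusted p = 8.6e-04). The fold from group medians in the authors' deposited table was 1.17 on the log2 scale. About 742 reads per library in Arid4bSCKO and 384 in control stand behind these values.

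Dhrs3 encodes the enzyme of the reverse step, which reduces retinal to retinol, and it rose as well. It lies on chromosome 4 (144892827 to 144927645, plus strand). The authors' deposited table gives it mean log2 levels of 9.31 in Arid4bSCKO and 8.82 in control. The difference was 0.50 (95% interval 0.25 to 0.74), or 141% of control (adjusted p = 0.0121). Rdh10 and Dhrs3, of opposite directions of the retinol and retinal exchange, thus both had a higher transcript level in Arid4bSCKO. They are not the only such enzymes. The other retinoid enzymes, described further on, include genes of other steps, and their differences ran from -1.12 to 2.63. Their sum, 101.2% of control, is weighted to the most abundant of them and does not measure this exchange. The ratio of Rdh10 to Dhrs3 per kb of transcript was 0.807 in Arid4bSCKO and 0.538 in control, and the change of this ratio was not tested.

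**Figure D2:**
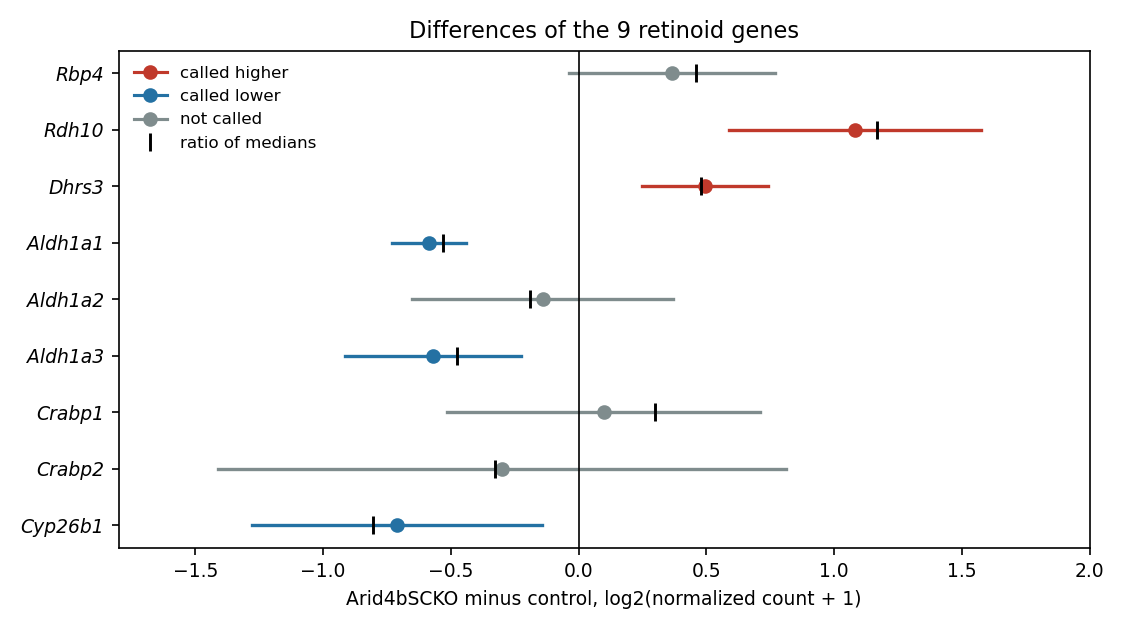
Difference of each of the 9 genes, Arid4bSCKO minus control on the log2(normalized count + 1) scale, in the order of the path from carrier to breakdown. Points are differences of the authors' group means, horizontal lines are 95% intervals worked back from the deposited p, and black ticks are the deposited log2 ratios of medians. Rdh10 at 1.08 and Dhrs3 at 0.50 lie to the right of 0, and Aldh1a1 at -0.59, Aldh1a3 at -0.57 and Cyp26b1 at -0.71 lie to the left with intervals that leave out 0.

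Of the 3 genes for the step from retinal to retinoic acid, Aldh1a1 and Aldh1a3 fell. Aldh1a1 (chromosome 19, 20601982 to 20643462, plus strand) is a very abundant transcript of this tissue. Its level per kb exceeded that of 99.3% of genes in Arid4bSCKO and 99.6% in control. The mean log2 level in the authors' deposited table was 14.42 in Arid4bSCKO and 15.00 in control. The difference of -0.59 (95% interval -0.73 to -0.44) put the gene at 66.6% of control (adjusted p = 0.00152). It had the smallest deposited p of the 9 genes, 3.64e-04 in the authors' deposited table. The spread between pools that this p implies was 0.06 log2 units, the smallest among the members, against a median of 0.11 for genes at levels from 13 to 15.

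Aldh1a1 has a near copy, Aldh1a7, so some of its reads may be shared. Among the 50-base words of its annotated transcripts 3.06% also occur in Aldh1a7, and how the authors assigned such reads is not given in the sources used here. Aldh1a7 was singled out after its value was seen. It was at a mean log2 level of 7.98 in Arid4bSCKO and 8.59 in control in the authors' deposited table. Its difference of -0.60 (95% interval -0.75 to -0.46) was called too (adjusted p = 0.00712). It rested on about 187 reads per library in Arid4bSCKO and 312 in control, against 16255 and 26736 for Aldh1a1. How far the values of Aldh1a7 hold reads of Aldh1a1 was not tested.

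Aldh1a3 (chromosome 7, 66390893 to 66427477, minus strand) was the least abundant of the 3. The authors' deposited table lists mean log2 levels of 7.30 in Arid4bSCKO and 7.87 in control. Its difference was -0.57 (95% interval -0.91 to -0.23), or 67.3% of control (adjusted p = 0.0301). The call was lost with the ratio of medians (-0.48, adjusted p = 0.0543) and after removal of a trend over transcript length (-0.50, adjusted p = 0.0505). About 116 reads per library in Arid4bSCKO and 189 in control were behind it. Of the 50-base words of its annotated transcripts, 1.15% also occur in other genes, and for the other 7 members, Aldh1a1 aside, this share was 0.

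Aldh1a2 (chromosome 9, 71215789 to 71296243, plus strand), the dehydrogenase that makes most of the retinoic acid of the early embryo, was not called. Its mean log2 level in the authors' deposited table was 10.22 in Arid4bSCKO and 10.36 in control. The difference of -0.14 had a 95% interval of -0.65 to 0.37, from 63.6% to 129% of control (adjusted p = 0.534). A fall of the size seen for Aldh1a1 lies inside this interval, so the genes are not shown to differ in response. Summed per kb, the family stood at 11227 normalized counts in Arid4bSCKO and 16644 in control, or 67.5% of control. Aldh1a1 made up 94.9% of that sum in Arid4bSCKO and 96.1% in control, and Aldh1a2 4.69% and 3.49%. The change in these shares was not tested.

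The binding proteins hold retinoic acid in the cytoplasm. CRABP2 is known for handing it to the receptor RAR, and CRABP1 for slowing its action and leading it to breakdown. Crabp1 (chromosome 9, 54764748 to 54773110, plus strand) had mean log2 levels of 7.24 in Arid4bSCKO and 7.14 in control in the authors' deposited table. Its difference was 0.10 (95% interval -0.52 to 0.71, adjusted p = 0.793), and that became -0.03 after removal of the length trend, so no direction is given. The ratio of medians in the authors' deposited table was 0.30 on the log2 scale, so its means and medians differed more than those of the other members.

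Crabp2 (chromosome 3, 87948693 to 87953372, plus strand) was listed at mean log2 levels of 5.47 in Arid4bSCKO and 5.77 in control in the authors' deposited table. Its difference of -0.30 had the widest interval of the 9, -1.41 to 0.81 (adjusted p = 0.589). It rested on about 32.2 reads per library in Arid4bSCKO and 43.7 in control. Counting alone gives a spread of 0.23 log2 units at that depth, and the spread implied by the deposited p was 0.49. The interval of the difference runs from 37.6% to 175% of control.

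Cyp26b1, whose enzyme breaks retinoic acid down, fell. It lies on chromosome 6 (84571414 to 84593908, minus strand) and was the second most abundant of the 9 per kb. Its mean log2 level in the authors' deposited table was 11.17 in Arid4bSCKO and 11.88 in control. The difference was -0.71 (95% interval -1.28 to -0.14), or 61.1% of control, with a range of 41.3% to 90.6% (adjusted p = 0.012). The ratio of medians in the authors' deposited table was larger, at -0.80. The ratio of Aldh1a1 to Cyp26b1 per kb of transcript was 19.3 in Arid4bSCKO and 17.7 in control, and its change was not tested. A ratio of transcripts is not a measure of synthesis against breakdown.

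**Figure D3:**
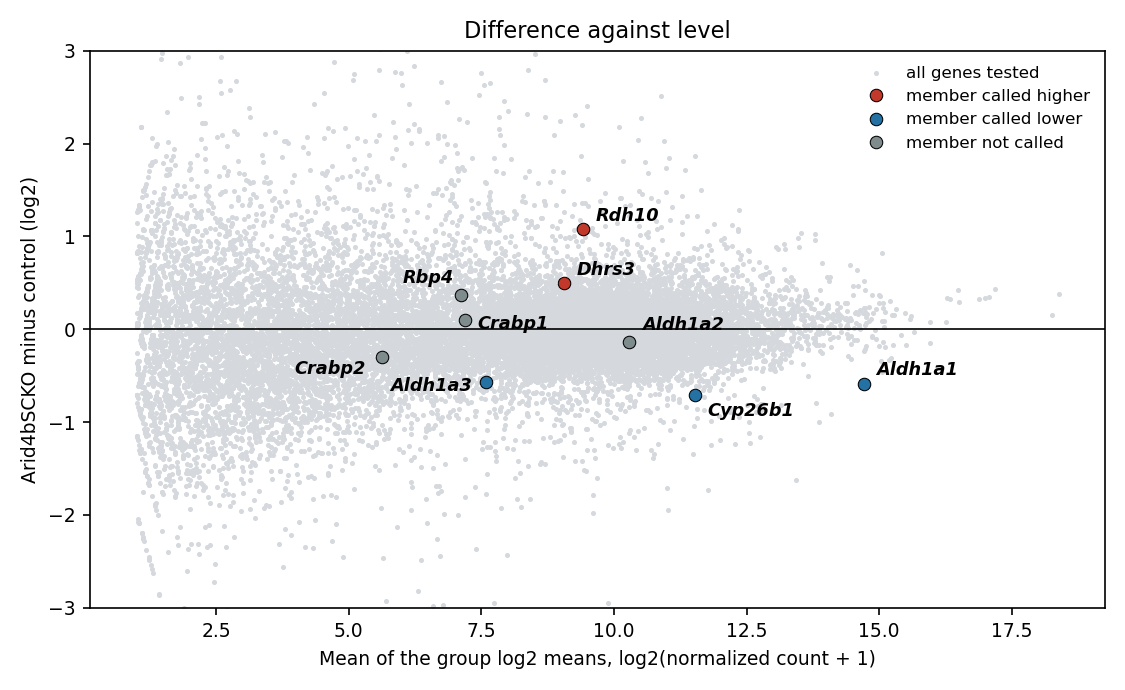
Difference, Arid4bSCKO minus control (log2), against the mean of the group levels for all 19095 genes tested (grey) and the 9 members (coloured by call). The axis runs from -3 to 3 and leaves out 41 genes beyond it. Aldh1a1 lies at the upper end of the level axis, where the cloud is narrow, and Crabp2 at 5.47 and 5.77 lies where it is wide.

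The calls for single members depend on how the spread between pools is shared among genes. Without a trend of the spread on level and without robust fitting, 1.24% of all genes and 1 of the 9 members, Aldh1a1, were called (adjusted p = 0.0475). Rdh10 then had an adjusted p of 0.0512, Dhrs3 0.0762, Aldh1a3 0.0811 and Cyp26b1 0.104. None of the 9 passed the FDR of the authors' deposited table, where Aldh1a1 came nearest at 0.0656. The smallest of the other 4 called members was 0.105 for Rdh10, and the largest 0.179 for Cyp26b1.

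The CYP26 relative Cyp26a1 and the receptor gene Rarb are textbook direct targets of retinoic acid, and their start regions carry a repeated hexamer that RAR and RXR bind. The stretches of 3 called members are shown beside theirs, since a list of response genes is counted further on. Sequences are from RefSeq (GRCm38.p6, the mm10 build), on the strand of the gene, and end before the first annotated exon. The motif searched was a direct repeat of a hexamer, where a copy reads AGGTCA, or else AGTTCA, while GGGTCA and also GGTTCA were allowed too, with 1, 2 or 5 bases between copies, on both strands. Capitals mark a match. Of all 32851 windows of 250 bases before a start site, 0.0883% held the repeat with 5 bases between copies, 0.174% that with 2 and 0.164% that with 1. RefSeq windows were matched for 6 of the 9 members, and none of their windows held any of these repeats. The absence says only that these letters are not in these windows.
Cyp26a1, chr19:37697558-37697797, plus strand: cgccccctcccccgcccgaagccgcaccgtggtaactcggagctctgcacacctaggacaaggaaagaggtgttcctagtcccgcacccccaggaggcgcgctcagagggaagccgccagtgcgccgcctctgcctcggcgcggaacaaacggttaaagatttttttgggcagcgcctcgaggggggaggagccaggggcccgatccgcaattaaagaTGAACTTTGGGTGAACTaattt
Rarb, the repeat alone, chr14:16575513-16575529, minus strand: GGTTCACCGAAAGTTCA
Dhrs3, chr4:144892577-144892826, plus strand: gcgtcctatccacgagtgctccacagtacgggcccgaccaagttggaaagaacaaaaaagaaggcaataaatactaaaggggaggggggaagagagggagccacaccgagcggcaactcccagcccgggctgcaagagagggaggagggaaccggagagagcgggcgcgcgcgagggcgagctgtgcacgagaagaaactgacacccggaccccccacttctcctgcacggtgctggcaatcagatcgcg
Aldh1a1, chr19:20601718-20601960, plus strand: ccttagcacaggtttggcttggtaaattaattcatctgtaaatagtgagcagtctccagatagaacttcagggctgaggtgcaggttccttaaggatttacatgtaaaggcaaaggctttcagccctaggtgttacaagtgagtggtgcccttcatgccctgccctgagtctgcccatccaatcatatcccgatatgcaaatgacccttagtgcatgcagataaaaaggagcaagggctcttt
Cyp26b1, chr6:84593909-84594060, minus strand: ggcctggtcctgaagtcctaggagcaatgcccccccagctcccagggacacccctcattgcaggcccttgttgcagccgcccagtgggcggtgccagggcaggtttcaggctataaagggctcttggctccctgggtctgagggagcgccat

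In Cyp26a1 the repeat lies on the opposite strand, 16 to 32 bases before the start site, and in Rarb on the gene's own strand, 37 to 53 bases before it. These genes can serve as readouts of the pathway, but few reads stand behind them here. About 26.8 reads per library in Arid4bSCKO and 15.9 in control fell on Cyp26a1, and 33.5 and 35.2 on Rarb. Cyp26a1 had mean log2 levels of 5.21 in Arid4bSCKO and 4.36 in control in the authors' deposited table. The difference of 0.86 (95% interval 0.01 to 1.70) was not called (adjusted p = 0.106). Rarb was at 5.53 in Arid4bSCKO and 5.47 in control in the authors' deposited table, with a difference of 0.06 (95% interval -1.03 to 1.15, adjusted p = 0.932). Rarb overlaps an annotated antisense gene, and whether the authors' counting used strand is not known here.

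Among the other enzymes of retinoid metabolism, 2 of 27 tested rose and 1 fell, with a median difference of 0.02, against -0.04 over all genes tested. The share called was 11.1%, below the 13.83% of all genes tested. Adh7, an alcohol dehydrogenase that oxidises retinol, had the largest difference of any retinoid gene examined. Its mean log2 level in the authors' deposited table was 7.33 in Arid4bSCKO and 4.69 in control, a difference of 2.63 (95% interval 2.03 to 3.23), or 6.20-fold (adjusted p = 1.09e-04). It remained called without the trend and robust fitting (adjusted p = 0.0164). The aldo-keto reductase gene Akr1b8 rose by 0.33 (0.17 to 0.48), and Retsat, which saturates retinol, fell by 0.51 (-0.85 to -0.16). Lrat, which stores retinol as esters, was at 0.82 (0.16 to 1.48) and was not called.

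Of 10 other genes of retinoid binding and uptake, 1 rose and 0 fell, and the list's median difference was -0.21. Its share called was 10%, against 13.83% of all genes tested. Stra6, the cell surface receptor for the retinol carrier, was at 0.01 (-0.63 to 0.65).

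Retinoid and related nuclear receptors fell in 4 of 10 cases and rose in 0, and the median difference was -0.09. Over all genes tested 6.46% were called lower and 7.37% higher. Rara, the RAR of Sertoli cells and other somatic cells, was at a mean log2 level of 10.17 in Arid4bSCKO and 11.04 in control in the authors' deposited table. Its difference of -0.87 (95% interval -1.42 to -0.33) put it at 54.6% of control (adjusted p = 0.00333). Rxra, a partner receptor, fell by 0.38 (-0.67 to -0.09, adjusted p = 0.0239), and was not called after removal of the length trend (-0.27, adjusted p = 0.0883). Rarg was at 0.13 (-0.10 to 0.37), Rxrb at 0.01 (-0.09 to 0.10) and Rxrg at -0.18 (-0.90 to 0.54), none of them called. Rora and Nr2f2, orphan receptors kept on the list as relatives, fell by 0.67 and 0.38. With the ratio of medians, neither of these was called (adjusted p = 0.0729 and 0.0861), and Nr2f2 also lost its call after removal of the length trend (-0.33, adjusted p = 0.0577).

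All 10 receptor coregulators had negative differences, and 3 fell. Their median was -0.25. Over all genes tested 10346 of 19095 differences were negative, and 6.46% were called lower. The 3 that fell were the coactivator gene Ncoa2 at -0.54 (95% interval -0.98 to -0.11), the acetyltransferase gene Ep300 at -0.36 (-0.63 to -0.10) and the corepressor gene Nrip1 at -0.39 (-0.66 to -0.12). These are long transcripts, and after removal of the length trend only Ncoa2 was called, with Ep300 at -0.19 (adjusted p = 0.222) and Nrip1 at -0.29 (adjusted p = 0.105). Nrip1 also lost its call with centring on the median of all genes (adjusted p = 0.0517).

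**Figure D4:**
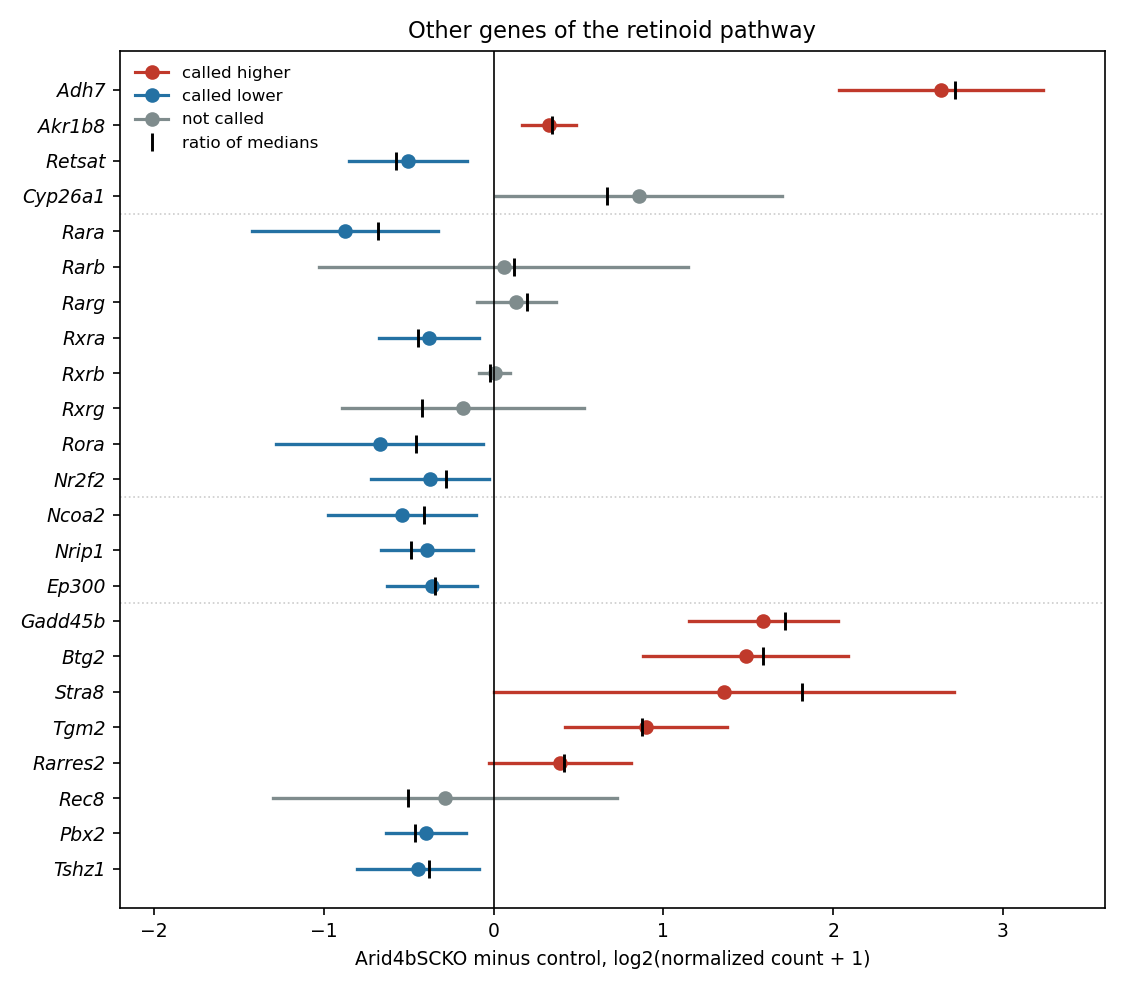
Differences, Arid4bSCKO minus control on the log2(normalized count + 1) scale, of other retinoid genes named in the text, with Aldh1a7, Lrat and Stra6 left out. Dotted lines part enzymes, receptors, coregulators and response genes, points and lines are differences with 95% intervals, and black ticks are deposited ratios of medians. Adh7 at 2.63 stands apart at the right, and Rara at -0.87 is the lowest.

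A further list held 30 genes known to respond to retinoic acid in some tissue. Of these, 8 rose and 3 fell, against 7.37% and 6.46% of all genes tested. The median difference was 0.08. The list shares Rdh10, Dhrs3 and Crabp2 with the 9 members, and without these it had 6 higher and 3 lower of 27. Stra8, which germ cells switch on when retinoic acid reaches them, had a mean log2 level of 8.11 in Arid4bSCKO and 6.75 in control in the authors' deposited table. Its difference was 1.36 (95% interval 0.00 to 2.71), called at an adjusted p of 0.0422, and its ratio of medians was 1.82. Without trend and robust fitting Stra8 was not called (adjusted p = 0.131), and its deposited FDR was 0.238. Tgm2, the transglutaminase gene, rose by 0.90 (0.42 to 1.38), and Rarres2, which encodes chemerin, by 0.39 (-0.02 to 0.81). Rarres2 had an adjusted p of 0.0472, and its call was lost after removal of the length trend (0.172), with no filter on level (0.0514) and without robust fitting (0.0509).

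The highest of the list were Gadd45b at 1.59 (95% interval 1.15 to 2.03) and Btg2 at 1.48 (0.88 to 2.09). Both are also known as immediate-early or p53 target genes, so their level is not a readout of retinoic acid alone. Among the genes that fell were the homeobox cofactor gene Pbx2 (-0.40, -0.63 to -0.16) and the zinc finger gene Tshz1 (-0.44, -0.80 to -0.09). After removal of the length trend Tshz1 was not called (adjusted p = 0.0733). Rec8, a meiotic cohesin gene that responds to retinoic acid in germ cells, was at -0.29 (-1.30 to 0.73) and was not called.

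Some of these genes are made mainly in particular cells of the testis, and markers of those cells moved in the same comparison. Of 30 Sertoli cell genes, a list that holds Cyp26b1, 15 were called lower and 4 higher, against 6.46% and 7.37% of all genes tested. Without Cyp26b1 the list had 14 lower and 4 higher of 29 and a median of -0.71, the same as the difference of Cyp26b1. The differences on it were not uniform, and ran from -1.98 for Rhox8 to 1.10 for Defb36, with Sox9 at 0.15. The summed level of those 29 genes was 64.3% of control, beside 61.1% for Cyp26b1. Aldh1a1, which is not on the list, was at 66.6%. None of the Sertoli cell markers was listed at 0 in either group. Their part in the falls of Cyp26b1 and Aldh1a1 was not tested.

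Macrophage genes moved the other way, with 15 of 16 called higher, a summed level of 217.9% of control and a median of 0.94. Germ cell genes had 1 of 30 called higher and 2 lower, which is 10% called, against 13.83% of all genes tested. They had a median of -0.20 and a summed level of 84.3% of control, while Stra8 was at 256% of control. Coelomic surface genes, markers of the mesothelium over the testis, had 1 of 7 called higher and all 7 differences positive, with a median of 0.41. Over all genes tested 8749 of 19095 differences were positive, and 7.37% were called higher. Among 13 mesonephric, rete and epididymal genes 1 rose and 1 fell, their median being 0.35. Lcn8 and Rnase10 of that list were not tested. They were listed at 0 in control and had only about 0.58 and 0.76 reads per library in Arid4bSCKO. The part of these cell types in the rises of Rdh10 and Adh7 was not tested.

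Fetal Leydig cell genes included 1 higher and 1 lower of 17 (median -0.08), myoid genes 1 of 14 higher and 2 lower (0.09), and interstitial stroma genes 3 of 20 higher and 1 lower (-0.01). Endothelial genes included 1 higher and 1 lower of 16 (-0.14), fat genes likewise of 6 (-0.30) and erythroid genes 0 of 7 (0.12), with 0 of the 7 at an unadjusted deposited p below 0.05. The share called was 11.8% for Leydig, 21.4% for myoid, 20% for stroma, 12.5% for endothelial and 33.3% for fat genes. Over all genes tested it was 13.83%.

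**Figure D5:**
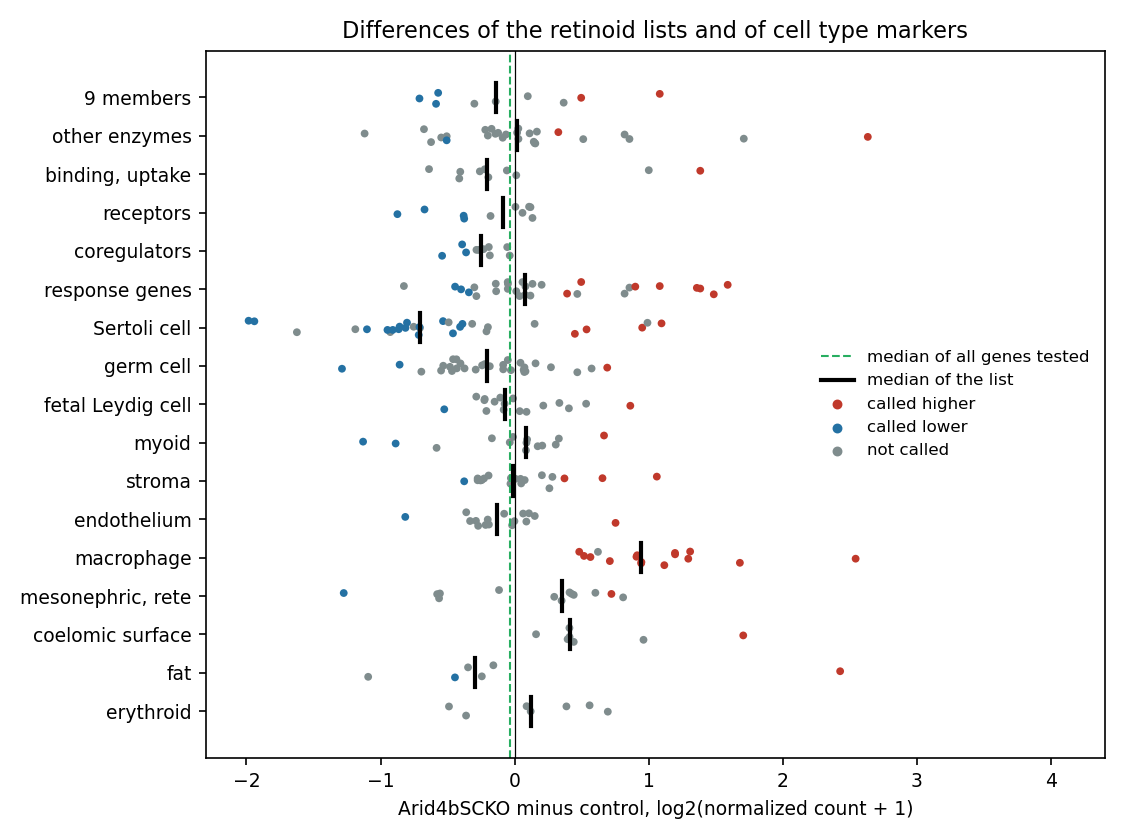
Differences, Arid4bSCKO minus control on the log2(normalized count + 1) scale, of the genes of each retinoid list (upper 6 lines) and of each cell type list (lower 11 lines). Each point is a gene coloured by its call, black bars are list medians and the dashed green line is the median of all genes tested, -0.04. The Sertoli cell points lie mostly to the left of 0 and the macrophage points all to the right.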

How the data were processed

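Whole testes were sequenced from strand-preserving poly(A) libraries, read from both ends for 50 bases, with 3 libraries in each group. Per the submitters' processing notes, STAR 2.4 and mm10 were used. Which program counted the reads, whether strand was used, and how counts were normalized is not given in the sources used here. Per the file headers and column descriptions, the authors deposited for each gene a mean log2 normalized count per group, a log2 fold change from group medians, an unadjusted p-value assuming equal variance, and an FDR. The FDR was recomputed by the Benjamini-Hochberg method and matched within a relative difference of 4.78e-05.

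Here each standard error was obtained by inverting the deposited p-value at 4 residual degrees of freedom. The implied variances of the 19095 genes with a mean log2 level of at least 1 were moderated in limma 3.58.1 (R 4.3.3). The function squeezeVar was used, robustly and with a level trend, and p-values were adjusted over these genes by the Benjamini-Hochberg method. The code was also run on simulated counts of an assumed dispersion, which cannot show how well the calls hold in these data. In 529 rows control was at 0 and the Arid4bSCKO mean equalled a filled-in value, and these were left out. The log2 scale has an offset of 1, so folds of low genes are understated. A list's genes were described by counts and medians, with no set test. Of the genes tested 92.55% had a transcript length, from GENCODE release M21 (the median over matched transcripts). Depth was estimated by taking, for each group, the 3 most frequent means of genes at 0 in the other group as 1 read in 1 of its 3 libraries. Intervals cover the spread between pools. Nothing states that pools came from separate litters, so that spread may be smaller than the spread between litters.

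The members and lists were chosen with earlier results of these data known. The genes named are the 9 members, every other retinoid gene that was called, the RAR and RXR genes, Stra8, Cyp26a1 and Rec8, except some that are counted but not reported here by name. Further names, Aldh1a7, Lrat, Stra6 and the marker genes, were chosen after their values were seen.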

Additional observations from a re-analysis of the deposited data

How the results depend on the processing

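The deposited FDR passed none of the retinoid genes: 0 of the 9 members and 0 of each list in either direction, so Aldh1a1 (-0.59), Aldh1a3 (-0.57), Cyp26b1 (-0.71), Rdh10 (1.08), Dhrs3 (0.50) and Arid4b (-1.51) missed it, Arid4b with an FDR of 0.0535. Without trend and robust fitting, the members called were 0 higher and 1 lower, with Aldh1a3, Cyp26b1, Rdh10 and Dhrs3 missing the threshold at the same differences. The lists then had 1 other enzyme and 2 response genes called higher, 0 binding genes, and 0 enzymes, receptors, coregulators and response genes called lower. With the length trend removed, Aldh1a3 was at -0.50 and not called, Crabp1 turned to -0.03 (-0.0309, adjusted p = 0.942), and the counts were 4 enzymes higher and 2 receptors, 1 coregulator and 1 response gene lower. With ratios of medians, Aldh1a3 was at -0.48 and not called, 2 receptors were called lower, and Rxrb turned to -0.02 (-0.0186). The cause of these shifts was not tested. Removing the length trend changed the calls over all genes to 1504 higher and 808 lower, from 1408 and 1233. Centring on the median of all genes or on level, dropping only robust fitting, and another or no filter left the calls of the 9 members on the same side. No paired analysis was possible because the table holds group means and no values of single libraries, and for the same reason no library could be left out. Counting noise was widest for Crabp2, at 0.23 log2 units, while the implied spread was nearest to counting noise for Rbp4 (1.28 times it), followed by Aldh1a3.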

Other observations

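Beside the rise of Stra8, meiotic prophase genes were counted. Of 25 such genes, in a list written after the table had been opened, 0 were called higher and 1 was called lower. The list had 8 positive differences and a median of -0.15. Over all genes tested 8749 of 19095 differences were positive, and 7.37% were called higher and 6.46% lower. The meiotic gene called lower was Rad51c, a recombination gene, at -0.60 (95% interval -0.72 to -0.49, adjusted p = 0.0091). Prdm9, which marks recombination sites, was at 0.42 (-0.09 to 0.92), and Sycp3, of the synaptonemal complex, at -0.24 (-0.46 to -0.03), neither of them called. Of 14 genes of spermatogonial differentiation, in a list made at the same point, Stra8 alone was called (7.14%, against 13.83% of all genes tested). Kit, the receptor of differentiating spermatogonia, was at 0.47 (-0.22 to 1.15), and the list median was -0.04.

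The genes Nr5a1, Sox9 and Fgf9, known to promote Cyp26b1 expression in the fetal mouse testis, were looked up after the fall of Cyp26b1 had been seen. Nr5a1, which encodes SF1, fell by 0.53 (95% interval -0.78 to -0.29, adjusted p = 0.0034). Sox9 was at 0.15 (-0.38 to 0.68) and Fgf9 at -0.20 (-1.32 to 0.92), and neither was called. All of these genes belong to the list of 30 Sertoli cell genes, of which 15 were called lower. Their part in the fall of Cyp26b1 was not tested.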
